A study of Homo sapiens with 22 samples.

Results

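The genes described here encode the proteasome: the subunits of its 20S core (PSMA and PSMB genes), the subunits of its 19S regulatory particle (PSMC and PSMD genes), its alternative activators (PSME genes), its inhibitor PSMF1 and the chaperones that build the core (PSMG genes). The proteasome was chosen with earlier results of these data known. Its genes were then taken by symbol alone, as every probe whose annotated symbol was PSM, a letter from A to G and a number. This gave 66 of the 48803 probes on the array, for 43 of 18852 gene symbols. Of these 43 genes, 38 had a probe bright enough to be tested, among 10147 genes tested in all. RefSeq lists 48 human protein-coding genes of this pattern, and the other 5 (PSMA7, PSMC5, PSMD7, PSMD13 and PSMG4) were not analysed here.

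The cells were HEK293T, an established line of human embryonic kidney origin that expresses the SV40 large T antigen. All groups had been transfected with a small interfering RNA (siRNA), either one directed at Satellite III (Sat III) transcripts or a scrambled one. Sat III transcripts are non-coding RNAs from pericentromeric repeats that human cells make under heat stress. In the Sat III siRNA arm 3 arrays came from untreated cells, 3 from cells heated for 1 h at 42 °C and 4 from cells heated in the same way and then left to recover for 6 h. The scrambled siRNA arm had 4 arrays in each of the same 3 states, so that 22 Illumina arrays of total RNA were used. The labels do not say whether arrays of a group came from separate cultures, so the p-values below measure the spread between these arrays, which may be technical, and the small number of arrays limits the precision. The level of Sat III RNA itself was not analysed here.

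The proteasome degrades proteins tagged with ubiquitin. The 19S particle recognises, unfolds and de-ubiquitinates the substrate and feeds it into the barrel of the 20S core, where 3 of the beta subunits cut it. Dedicated chaperones assemble the core and the base of the 19S particle, and alternative caps can take the place of the 19S particle. In human cells transcription of the subunit genes is coordinated by the factor NFE2L1, which binds antioxidant response elements in their promoters and is processed to its active form when proteasome capacity falls short. The best known heat-inducible genes, by contrast, carry binding sites for heat shock factor 1, and they encode chaperones such as HSPA6 and DNAJB1. Heat shock raises the load of misfolded proteins, which is why proteasome genes are of interest in heated cells.

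The 250 bases upstream of the annotated start were read from RefSeq (GRCh38.p14) for the 38 of 43 members with an entry. Only 33 of these were among the tested genes, so this set of 38 is not the tested set of 38. The 4 promoters printed here carry the contrasts described below. HSPA6 is a gene of the heat response and no proteasome gene. PSMG1 is the member with the largest difference between the siRNA arms. PSME3 is the member that passed the test as lower in recovery in both arms, and PSMB10 the one that passed it as higher in the Sat III siRNA arm. Each is written 5′ to 3′ on the strand of its gene, and capitals mark every match to a searched motif.
HSPA6, chr1:161524290-161524539, plus strand: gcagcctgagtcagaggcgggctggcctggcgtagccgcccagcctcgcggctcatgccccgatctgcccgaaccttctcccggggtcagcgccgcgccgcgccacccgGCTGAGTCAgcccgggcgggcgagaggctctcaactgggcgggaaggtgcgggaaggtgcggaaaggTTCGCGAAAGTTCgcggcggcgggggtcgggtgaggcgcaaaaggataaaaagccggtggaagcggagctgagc
PSMG1, chr21:39183452-39183701, minus strand: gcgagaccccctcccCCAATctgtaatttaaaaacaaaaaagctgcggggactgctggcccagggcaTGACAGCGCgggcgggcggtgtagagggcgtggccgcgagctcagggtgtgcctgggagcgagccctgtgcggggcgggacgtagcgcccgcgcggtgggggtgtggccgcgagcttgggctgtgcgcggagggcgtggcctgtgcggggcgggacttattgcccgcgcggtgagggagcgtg
PSME3, chr17:42833147-42833396, plus strand: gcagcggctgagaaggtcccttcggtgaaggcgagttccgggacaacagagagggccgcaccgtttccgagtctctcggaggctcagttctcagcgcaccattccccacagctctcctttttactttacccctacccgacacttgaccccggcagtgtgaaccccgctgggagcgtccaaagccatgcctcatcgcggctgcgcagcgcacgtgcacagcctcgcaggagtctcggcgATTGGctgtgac
PSMB10, chr16:67936851-67937100, minus strand: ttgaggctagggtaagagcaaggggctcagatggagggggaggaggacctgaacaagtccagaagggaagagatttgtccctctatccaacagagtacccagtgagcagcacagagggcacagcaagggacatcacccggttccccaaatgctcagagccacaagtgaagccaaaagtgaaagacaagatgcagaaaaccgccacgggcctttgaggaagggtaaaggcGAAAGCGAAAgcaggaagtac

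Motifs were searched on both strands. The heat shock element, written as GAA, TTC and GAA or as TTC, GAA and TTC with 2 bases between the triplets, was found in 0 of 38 proteasome promoters, against 120 of all 27305 promoters (0.439%). Among the 3 heat response genes HSPA6, DNAJB1 and HSPH1, 1 promoter held it, that of HSPA6, as the longer capital run. The core of the antioxidant response element, TGACNNNGC, was found in 11 of 38 proteasome promoters (28.9%), against 11% of all promoters, and the HSPA6 promoter held 1 as well. The 11 were those of PSMB3, PSMB9, PSMD3, PSMD5, PSMD9, PSMD12, PSME1, PSME2, PSME4, PSMG1 and PSMG2, so 3 of the 4 activator genes and both PSMG1 and PSMG2, the 2 partners of one assembly chaperone, held it. The CCAAT box was found in 16 of 38 proteasome promoters (42.1%), against 33% of all promoters, and it is the capital run in the PSME3 promoter and the first one in that of PSMG1. A pair of GAAA runs with 2 bases between them, part of the elements bound by interferon regulatory factors, was added to the search after the promoters had been seen. It was found in the promoters of PSMA4, PSMB4, PSMB10 and PSME2, which is 4 of 38 (10.5%) against 3.07% of all promoters. Among the 33 tested members with a promoter, 0 held the heat shock element and 10 (30.3%) the antioxidant core. The CCAAT box was in 14 of them (42.4%) and the GAAA pair in 4 (12.1%). These are matches of letters and not binding sites, and none of the motifs overlapped another in the 4 printed promoters.

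In every group the arrays behaved as labelled with respect to heat. DNAJB1, a co-chaperone of the heat response, lay between 13.34 and 13.68 log2 units on the 7 heat-shocked arrays and between 8.99 and 9.23 on the 7 untreated arrays. The probe of HSPA6 was detected on every heat-shocked and every recovering array and on no untreated array. Between 13176 and 14863 probes were detected per array. The deposited scanner values and the authors' deposited normalised table carry the same labels, but 6 columns of the authors' table paired with a scanner array of another label. Each of the 6 paired with the scanner array 1 place earlier in the sample order. The authors' values for Sat III siRNA recovery replicate 3 had no scanner partner. The scanner array of that name paired with the authors' scrambled siRNA untreated replicate 4. The scanner array of Sat III siRNA recovery replicate 4 was the partner of no authors' column. The labels of the scanner table were used, and each call of a proteasome gene below was also computed on the 15 arrays whose labels match. Those arrays hold only replicates 1 and 2 of the Sat III siRNA arm and replicates 1, 2 and 3 of the scrambled siRNA arm. Of 5 genes known from HEK293 cells, NEFM, NEFL, INA and VIM were detected on every array and PAX2 on none, while on every array these genes of other cells were not detected: PTPRC, CD74, HLA-DRA, LYZ and HBG1 of 6 blood genes, COL1A2, DCN and THY1 of 6 fibroblast genes, and KRT5 and KRT14 of 5 keratinocyte or carcinoma genes with a probe. The other genes of these lists were detected on some or all arrays, LUM, S100A2, EPCAM and CDKN2A on all 22, COL1A1 on 21, COL3A1 on 2 and CD14 on 15.

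Of the 66 member probes, 51 were detected on all 22 arrays, 14 on none and 1, a second probe of PSME1, on 1 array. All 17 genes of the 19S particle, 14 of the 18 genes of the 20S core and all 4 activators were tested. The core subunits that were not detected on any array were PSMB8 (4 probes) and PSMB9 (2 probes), the interferon-inducible catalytic subunits of the immunoproteasome, PSMA8, the alpha subunit of the testis, and PSMB11, the catalytic subunit of the thymus. PSMF1, the proteasome inhibitor, was likewise undetected on all 22 arrays. PSMA8, PSMB11 and PSMF1 each had only a single probe. A silent probe does not show that a gene is silent, since PSMA1, PSMC6 and PSMD12 each had a probe detected on no array and another detected on all 22. PSMB10, the third inducible catalytic subunit, and PSME1 and PSME2, which form the interferon-inducible activator, were detected on all 22 arrays.

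The members varied little between the 6 groups. The range of a gene's 6 group means had a median of 0.20 log2 units over the 38 members, from 0.11 in PSMB7 to 0.96 in PSMG1, while over all 10147 genes its median was 0.36. Only PSMG1 had a range above 1.5-fold, so 1 of 38 members (2.63%) passed this mark, against 18.3% of all genes. After PSMG1 the widest ranges were those of PSMB10 (0.51), PSMA2 (0.43), PSMD12 (0.39) and PSMD11 (0.38). The spread between arrays of one group was also small, with a median standard deviation of 0.11 log2 units in members and 0.15 in all genes. The members were not set against genes of like brightness.

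**Figure D1:**
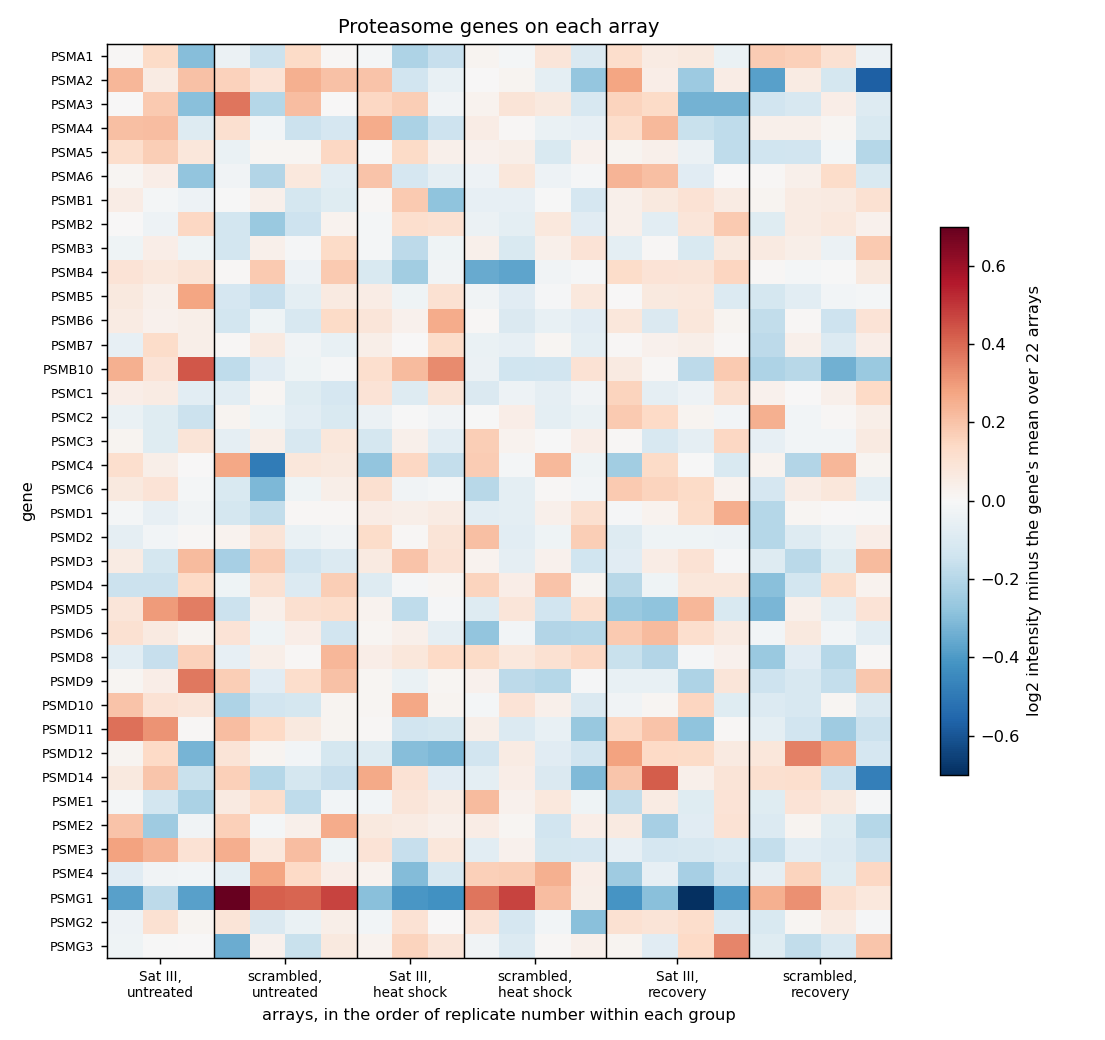
Normalised log2 intensity of the 38 tested proteasome genes on each of 22 arrays, as the difference from the gene's mean over all arrays (red higher, blue lower), with the arrays grouped by treatment and siRNA arm. The row of PSMG1 is blue on all 10 Sat III siRNA arrays and red on all 12 scrambled siRNA arrays. Fainter splits are seen in several members. PSME4 is below its mean on 9 of 10 Sat III siRNA arrays and above it on 9 of 12 scrambled siRNA arrays. In the opposite direction PSMB10 is above its mean on 9 of 10 and below it on 11 of 12. PSMD6 (9 of 10 and 9 of 12), PSMB5 (8 of 10 and 10 of 12) and PSMB6 (9 of 10 and 8 of 12) split in the direction of PSMB10.

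Few proteasome genes passed the test after heat shock. In Sat III siRNA cells 0 of 38 members were called after 1 h at 42 °C (limma, adjusted p under 0.05), while 7.62% of all genes tested were called, 4.11% higher and 3.51% lower. Without adjustment 4 members had a p under 0.05 there, PSMB4, PSMD5, PSMD11 and PSME3, all lower, of which PSMD11 is named because of its value. In scrambled siRNA cells 1 of 38 members fell and none rose, against 11.7% of all genes called, 5.97% higher and 5.70% lower. CD14, the one tested blood gene, was 0.96 higher after heat shock in Sat III siRNA cells (limma, adjusted p = 0.00231), and the summed level of the blood genes there was 7.55 to 7.70 log2 units, against 7.34 to 7.46 in untreated cells. Its part in the results was not tested. The median log2 change of the members was -0.03 in Sat III siRNA cells and 0.01 in scrambled siRNA cells, and the medians over all genes were -0.02 in both. A missed threshold does not show that a gene stayed level, but the intervals bound what these arrays allow. The 95% interval of the heat shock change lay within 1.5-fold for 38 of 38 members in Sat III siRNA cells (83.2% of all genes) and for 38 of 38 in scrambled siRNA cells (88.1% of all genes). The widest bound was that of PSMD5 in Sat III siRNA cells, at 1.48-fold, and that of PSMA2 in scrambled siRNA cells, at 1.42-fold.

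**Figure D2:**
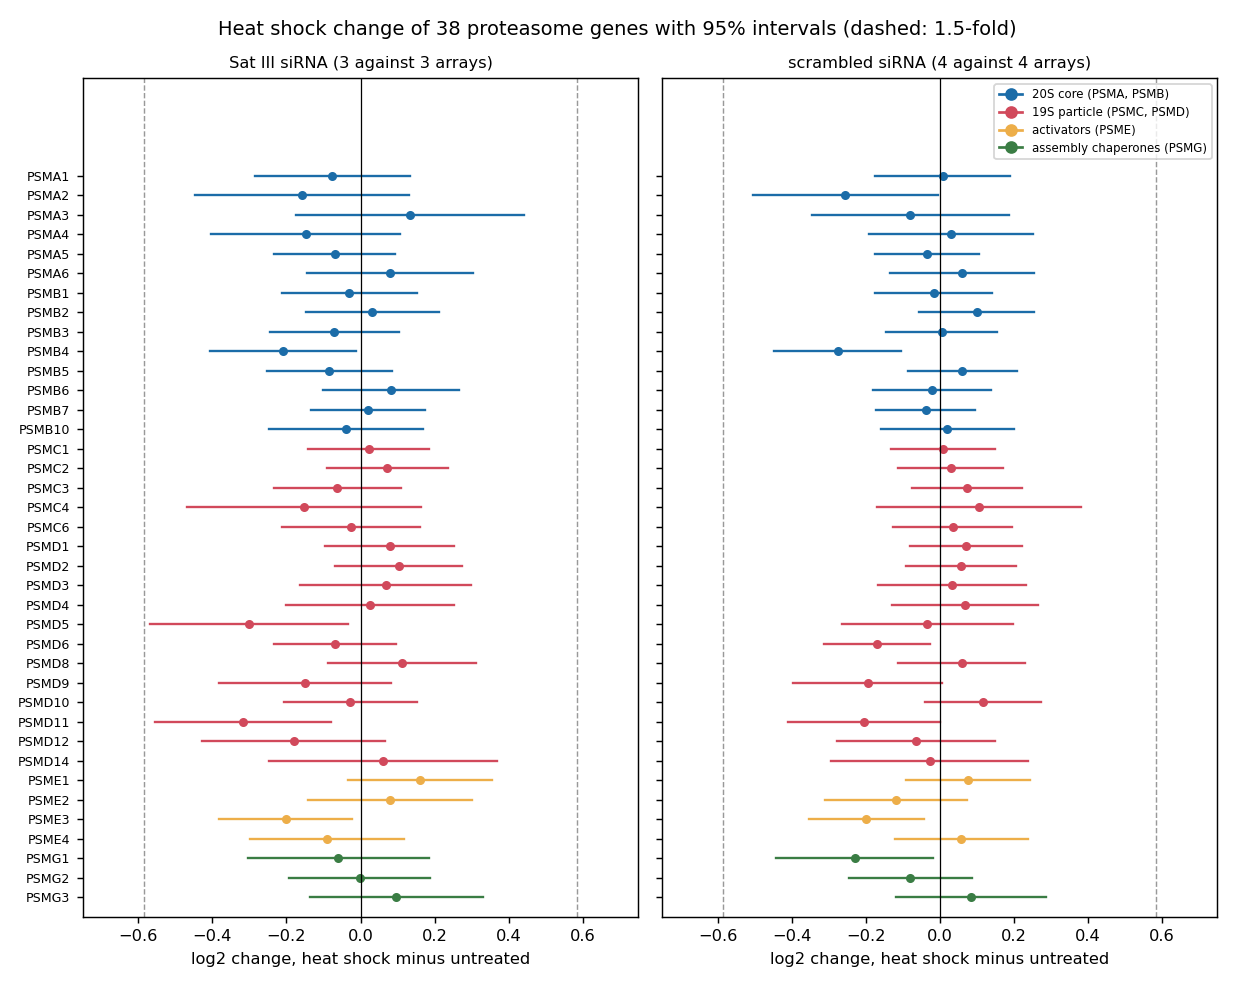
Log2 change of each tested proteasome gene, heat shock minus untreated, with its 95% interval from the limma fit, in Sat III siRNA cells (left) and scrambled siRNA cells (right). All 38 intervals lie between the dashed lines at 1.5-fold in both arms.

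PSMB4, a structural beta subunit of the core with no catalytic site, was the member that fell with heat shock. In Sat III siRNA cells it measured 12.14, 12.01 and 12.22 log2 units on the heat-shocked arrays, against 12.34, 12.32 and 12.34 on the untreated ones. These groups did not overlap, but the change of -0.21 ± 0.10 (SE, n = 3 and 3) had an adjusted p of 0.225 in limma. In scrambled siRNA cells PSMB4 measured 11.89, 11.88, 12.22 and 12.24 on the heat-shocked arrays, against 12.26, 12.43, 12.21 and 12.43 on the untreated arrays. Heat-shocked replicates 1 and 2 were low, and replicates 3 and 4 overlapped with untreated cells. HSPA6 split the heat-shocked arrays in the same way, with 13.68 and 13.74 log2 units on scrambled replicates 1 and 2 and 12.49 and 12.75 on replicates 3 and 4. In Sat III siRNA cells HSPA6 measured 13.72, 13.64 and 12.58 on heat-shocked replicates 1, 2 and 4, of which replicate 4 was also the highest in PSMB4. The part of this split in the PSMB4 result was not tested. The log2 change was -0.28 ± 0.08 (SE, n = 4 and 4; limma, adjusted p = 0.0316). The call was lost without heat-shocked replicate 1 or 2 or untreated replicate 2 or 4 of the scrambled arm (adjusted p up to 0.133, change -0.34 to -0.22), and on replicates 3 and 4 alone the change was -0.09.

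The catalytic subunits did not pass the test in any comparison of treatments. PSMB5, the chymotrypsin-like subunit, differed from untreated cells by -0.08 log2 units after heat shock in Sat III siRNA cells and by 0.06 in scrambled siRNA cells. PSMB6, the caspase-like subunit, had differences of 0.08 in Sat III and -0.02 in scrambled siRNA cells, and PSMB7, the trypsin-like subunit, of 0.02 and -0.04. In recovery against untreated cells the same 3 genes differed by -0.12, -0.02 and -0.01 in Sat III siRNA cells and by 0.01, -0.02 and -0.05 in scrambled siRNA cells. In the 19S particle, PSMD2 and PSMD4 bind ubiquitin or shuttle proteins, and PSMD14 removes ubiquitin chains. After heat shock they differed by 0.10, 0.03 and 0.06 in Sat III siRNA cells and by 0.06, 0.07 and -0.03 in scrambled siRNA cells, and none of these values passed the test. PSMD5, PSMD9 and PSMD10 are chaperones of the 19S base. They differed by -0.30, -0.15 and -0.03 in Sat III siRNA cells and by -0.03, -0.19 and 0.12 in scrambled siRNA cells, again without a call.

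After 6 h of recovery 1 member was lower and none higher than in untreated cells of the Sat III siRNA arm, when 12.0% of all genes were called, 6.05% higher and 5.94% lower. In the scrambled siRNA arm 3 members were lower and none higher, against 10.9% of all genes, 5.90% higher and 5.00% lower. Markers moved with recovery too: VIM was higher than in untreated cells by 0.45 in Sat III and 0.48 in scrambled siRNA cells, and EPCAM by 0.62 and 0.59 (limma, adjusted p from 0.000192 to 0.00277). NEFM was lower by 0.30 and 0.35, and NEFL by 0.56 in Sat III siRNA cells. The summed level of the 5 HEK293 genes was 12.78 to 12.90 log2 units in recovery in Sat III siRNA cells, against 12.52 to 12.64 untreated, and 12.82 to 12.85 in recovery in scrambled siRNA cells, against 12.41 to 12.61 untreated. The summed level of the keratinocyte or carcinoma genes overlapped between these groups in each arm, and the part of the markers in the results was not tested.

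PSME3, the nuclear activator also known as PA28-gamma, was called in both arms. In Sat III siRNA cells it measured 10.30, 10.24, 10.24 and 10.26 log2 units in recovery, against 10.64, 10.59 and 10.45 untreated. In scrambled siRNA cells it measured 10.19, 10.28, 10.26 and 10.20 in recovery, against 10.61, 10.42, 10.57 and 10.32 untreated. All recovering arrays were below all untreated ones within each arm, and in both arms the recovering arrays were close together. The log2 change was -0.30 ± 0.08 in Sat III siRNA cells (SE, n = 4 and 3; limma, adjusted p = 0.0173) and -0.25 ± 0.07 in scrambled siRNA cells (SE, n = 4 and 4; adjusted p = 0.0354). The 2 arms share no arrays, and a second probe of PSME3 gave -0.27 in the Sat III siRNA arm (limma on single probes, adjusted p = 0.0440) and -0.22 in the scrambled siRNA arm (adjusted p = 0.0874). In the scrambled arm the groups overlapped on that probe, since recovery replicate 2 at 9.87 lay above untreated replicates 1 and 4 at 9.83 and 9.82. Directly after heat shock PSME3 differed from untreated cells by -0.20 in both arms, with an adjusted p of 0.193 in Sat III and 0.098 in scrambled siRNA cells (limma). The call was lost without untreated replicate 1 or 2 in the Sat III arm (adjusted p up to 0.0953, change -0.36 to -0.26), and without recovery replicate 1, 3 or 4 or untreated replicate 1 or 3 in the scrambled arm (adjusted p up to 0.105, change -0.30 to -0.21). The other activators PSME1, PSME2 and PSME4 differed by 0.09, -0.01 and -0.13 in recovery in Sat III siRNA cells and by 0.02, -0.20 and -0.06 in scrambled siRNA cells, with no call.

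PSMA2, an alpha subunit of the outer ring of the core, had the largest called change of a member between treatments. In Sat III siRNA cells it measured 8.63, 8.40, 8.10 and 8.41 log2 units in recovery, against 8.59, 8.41 and 8.56 untreated, so the groups overlapped and the change was -0.13 with no call. In scrambled siRNA cells it measured 7.98, 8.41, 8.23 and 7.78 in recovery, against 8.52, 8.45, 8.60 and 8.56 untreated. These groups did not overlap, and recovery replicates 1 and 4 lay lowest. The log2 change was -0.43 ± 0.12, or 1.35-fold lower (SE, n = 4 and 4; limma, adjusted p = 0.0241). The difference between the arms in this change was 0.30 log2 units, with an adjusted p of 0.999 in limma. The call was lost without recovery replicate 1 or 4 or untreated replicate 3 or 4 of the scrambled arm (adjusted p up to 0.0905, change -0.54 to -0.33).

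PSMG1, a core assembly chaperone, was the third member that was lower in recovery in scrambled siRNA cells, by 0.32 ± 0.10 log2 units (SE, n = 4 and 4; limma, adjusted p = 0.0488). It measured 10.54, 10.60, 10.40 and 10.36 in recovery, against 11.01, 10.70, 10.69 and 10.76 untreated, and the groups did not overlap. Its second probe gave -0.40 (limma on single probes, adjusted p = 0.0199). This call on the brighter probe held without recovery replicate 2 and was lost without any one of the other 7 arrays (adjusted p up to 0.15, change -0.36 to -0.24). Its partner PSMG2 and the chaperone PSMG3 differed by -0.01 and 0.06 in the same comparison and were not called.

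Between recovery and heat shock, where the largest shares of all genes were called, the members again gave few calls. In Sat III siRNA cells 1 of 38 members was called, as higher, against 21.5% of all genes, 11.8% higher and 9.75% lower. This was PSMD12, a subunit of the 19S lid, which measured 10.77, 10.63, 10.63 and 10.56 log2 units in recovery, against 10.40, 10.20 and 10.18 after heat shock, without overlap. The change was 0.39 ± 0.11 (SE, n = 4 and 3; limma, adjusted p = 0.0151), and in scrambled siRNA cells it was 0.22 with no call. In scrambled siRNA cells 1 of 38 members was called, as lower, against 21.7% of all genes, 12.2% higher and 9.53% lower. This was PSMD8, another lid subunit, which measured 10.15, 10.33, 10.21 and 10.42 in recovery, against 10.54, 10.48, 10.51 and 10.55 after heat shock. These groups did not overlap either, and the change was -0.25 ± 0.08 (SE, n = 4 and 4; limma, adjusted p = 0.0371). PSMD12 lost its call without heat-shocked replicate 2 or 4 (adjusted p up to 0.0667, change 0.35 to 0.46), and PSMD8 lost its call without any heat-shocked replicate or without recovery replicate 1 or 3 (adjusted p up to 0.122, change -0.29 to -0.20). Of the markers, EPCAM, VIM and LUM were higher and CD14 and NEFL lower in recovery than after heat shock in Sat III siRNA cells, by 0.62, 0.36 and 0.42 and by 0.90 and 0.46. EPCAM and VIM were higher by 0.70 and 0.37 and NEFM was lower by 0.24 in scrambled siRNA cells, and the part of these markers was not tested. The comparisons of one arm share arrays with each other, so calls in them are not independent.

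**Figure D3:**
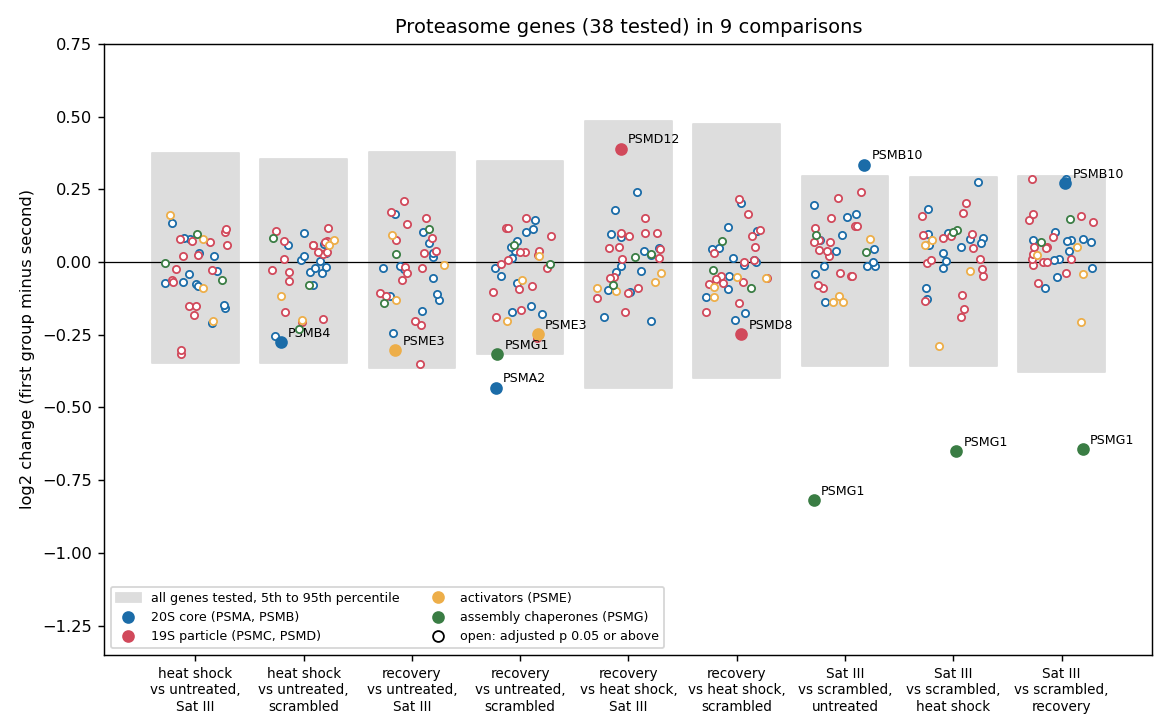
Log2 change of the 38 tested proteasome genes (points, coloured by their place in the complex; filled and named where the limma adjusted p is under 0.05) in the 6 comparisons of treatments and the 3 of siRNA arms, over the 5th to 95th percentile of all 10147 genes (grey). Nearly all members lie inside the grey range, PSMG1 is far below it in each comparison of siRNA arms, and PSMB10 is near its upper edge there. In the comparison of recovering cells PSMD14 and PSMA2 lie near that edge too.

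PSMG1 was the proteasome gene that separated the siRNA arms. It encodes one member of the chaperone pair, with PSMG2, that starts the assembly of the alpha ring of the core and keeps it from forming wrong dimers. In untreated cells it measured 9.91, 10.10 and 9.91 log2 units with the Sat III siRNA, against 11.01, 10.70, 10.69 and 10.76 with the scrambled siRNA. After heat shock it measured 9.99, 9.88 and 9.86 with the Sat III siRNA, against 10.66, 10.76, 10.50 and 10.33. In recovery it measured 9.88, 9.99, 9.58 and 9.88 with the Sat III siRNA, against 10.54, 10.60, 10.40 and 10.36. The highest Sat III siRNA array of any treatment was below the lowest scrambled siRNA array of any treatment. The log2 difference was -0.82 ± 0.11 in untreated cells (SE, n = 3 and 4; limma, adjusted p = 5.37e-05), which is 1.76-fold lower. It was -0.65 ± 0.11 after heat shock (SE, n = 3 and 4; adjusted p = 0.000462) and -0.64 ± 0.10 in recovery (SE, n = 4 and 4; adjusted p = 0.000191).

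A second PSMG1 probe was tested on its own. It measured 9.99, 10.12 and 9.78 log2 units in untreated Sat III siRNA cells, against 10.91, 10.37, 10.68 and 10.58 in untreated scrambled siRNA cells. Its differences were -0.67 in untreated cells, -0.78 after heat shock and -0.36 in recovery (limma on single probes, adjusted p = 0.000825, 0.000115 and 0.0324). Both probes thus gave lower values with the Sat III siRNA in all 3 states, and in recovery the second probe gave the smaller difference. The difference of the brighter probe kept its call on leaving out any one array (largest adjusted p 0.000876, 0.00442 and 0.0012 in the 3 states), on the 15 arrays with matching labels (0.00235, 0.00323 and 0.0108) and on replicates 1 and 2 alone. On replicates 3 and 4 alone its values were -0.82, -0.55 and -0.65, and the call in recovery was kept. The Sat III siRNA arm had only replicate 4 there in untreated and in heat-shocked cells, so a call cannot be judged in those states. The lower level was present before heat, and the differences between arms in the change of PSMG1 with heat shock and with recovery, 0.17 and 0.18 log2 units, had adjusted p of 0.997 and 0.999 in limma. A direct action of the siRNA on PSMG1 RNA was not tested, and only 1 scrambled control was used, so the target of the siRNA and the siRNA itself cannot be told apart.

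**Figure D4:**
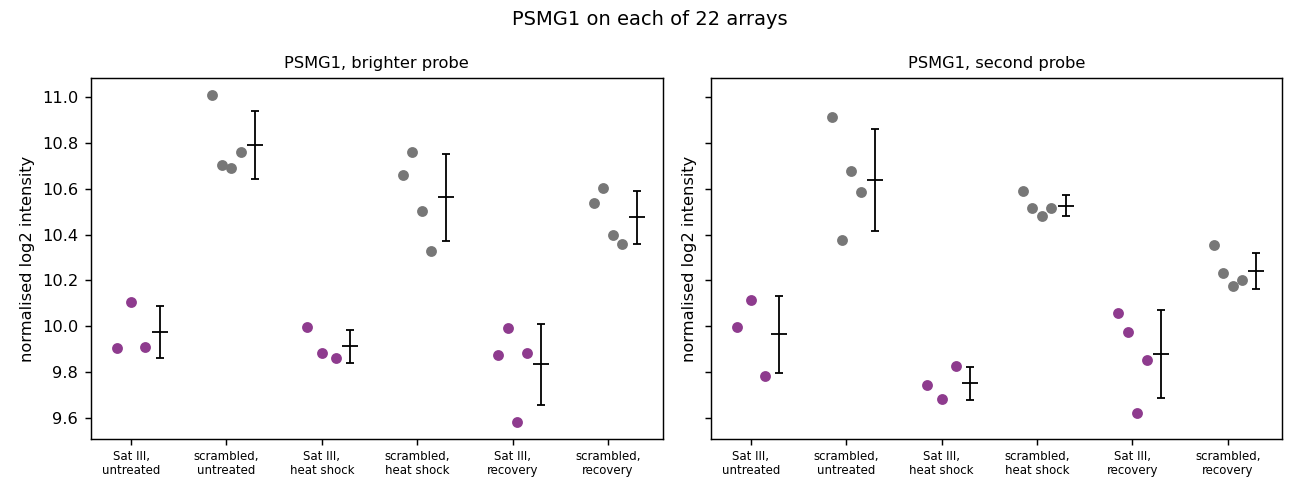
Normalised log2 intensity of PSMG1 on each array (points) with the mean and SD of each group (bars), for the brighter probe (left) and the second probe (right), in Sat III siRNA (purple) and scrambled siRNA (grey) cells. On both probes the Sat III siRNA arrays lie below the scrambled siRNA arrays of the same treatment.

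PSMB10 was the other member called between the arms, and it went the other way. This inducible catalytic subunit takes the place of PSMB7 in the immunoproteasome. In untreated cells it measured 11.23, 11.07 and 11.41 log2 units with the Sat III siRNA, against 10.80, 10.90, 10.95 and 10.97 with the scrambled siRNA. After heat shock it measured 11.09, 11.20 and 11.31 with the Sat III siRNA, against 10.94, 10.84, 10.84 and 11.08. In recovery it measured 11.04, 10.99, 10.80 and 11.16 with the Sat III siRNA, against 10.76, 10.78, 10.64 and 10.72. The Sat III siRNA arrays were above the scrambled ones within each treatment, with a narrow gap after heat shock and in recovery. The difference was 0.33 ± 0.09 in untreated cells (SE, n = 3 and 4; limma, adjusted p = 0.0346), 0.28 ± 0.09 after heat shock (n = 3 and 4; adjusted p = 0.0819) and 0.27 ± 0.09 in recovery (n = 4 and 4; adjusted p = 0.0482). The untreated call was lost without replicate 1 or 4 of the Sat III arm or replicate 1, 2 or 3 of the scrambled arm (adjusted p up to 0.202, difference 0.25 to 0.42). The recovery call held without Sat III replicate 3 and was lost without any one of the other 7 arrays (adjusted p up to 0.162, difference 0.22 to 0.34).

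With these genes, 2 of 38 members were called between the arms in untreated cells, 1 after heat shock and 2 in recovery, against 6.09%, 7.03% and 10.5% of all genes. Higher with the Sat III siRNA were 1, 0 and 1 members, against 2.27%, 2.35% and 3.60% of all genes, and lower was 1 member in each state, PSMG1, against 3.82%, 4.68% and 6.92%. Of the 4 tested HEK293 marker genes NEFM was also higher with the Sat III siRNA in all 3 states, by 0.30, 0.32 and 0.36 (limma, adjusted p = 0.0349, 0.0188 and 0.00384), NEFL was 0.62 higher in untreated cells, and INA was 0.41 lower in recovery. The summed level of the 5 genes overlapped between the arms in each state, and their part in the results was not tested. The median difference of the members was 0.04, 0.06 and 0.05 log2 units in the 3 states, against 0.00, 0.00 and 0.01 over all genes, and 23, 25 and 28 of the 38 members were on the positive side. The 95% interval lay within 1.5-fold for 37 of 38 members in each state, against 87.4%, 87.7% and 89.1% of all genes, and the exception was PSMG1. PSMG2, the partner of PSMG1, differed by 0.03, 0.11 and 0.07 and PSMG3 by 0.09, 0.10 and 0.15, all without a call. PSME4, an activator also known as PA200, differed by -0.14, -0.29 and -0.21, with no adjusted p below 0.0673 in limma, and PSME1 and PSME2 lay within 0.14 log2 units of the scrambled arm. PSMD10, also known as gankyrin, was 0.24 higher in untreated cells with adjusted p = 0.0845 (limma). With the mean of its tested probes in place of the brightest it was 0.28 higher and called (limma, adjusted p = 0.0319). PSMD14 and PSMA2 were each 0.29 higher in recovery, a larger difference than that of PSMB10 in that state, but neither was called. After heat shock PSMD14 was 0.20 higher, also without a call. The catalytic subunits PSMB5, PSMB6 and PSMB7 differed by 0.20, 0.08 and 0.04 in untreated cells, also without a call.

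**Figure D5:**
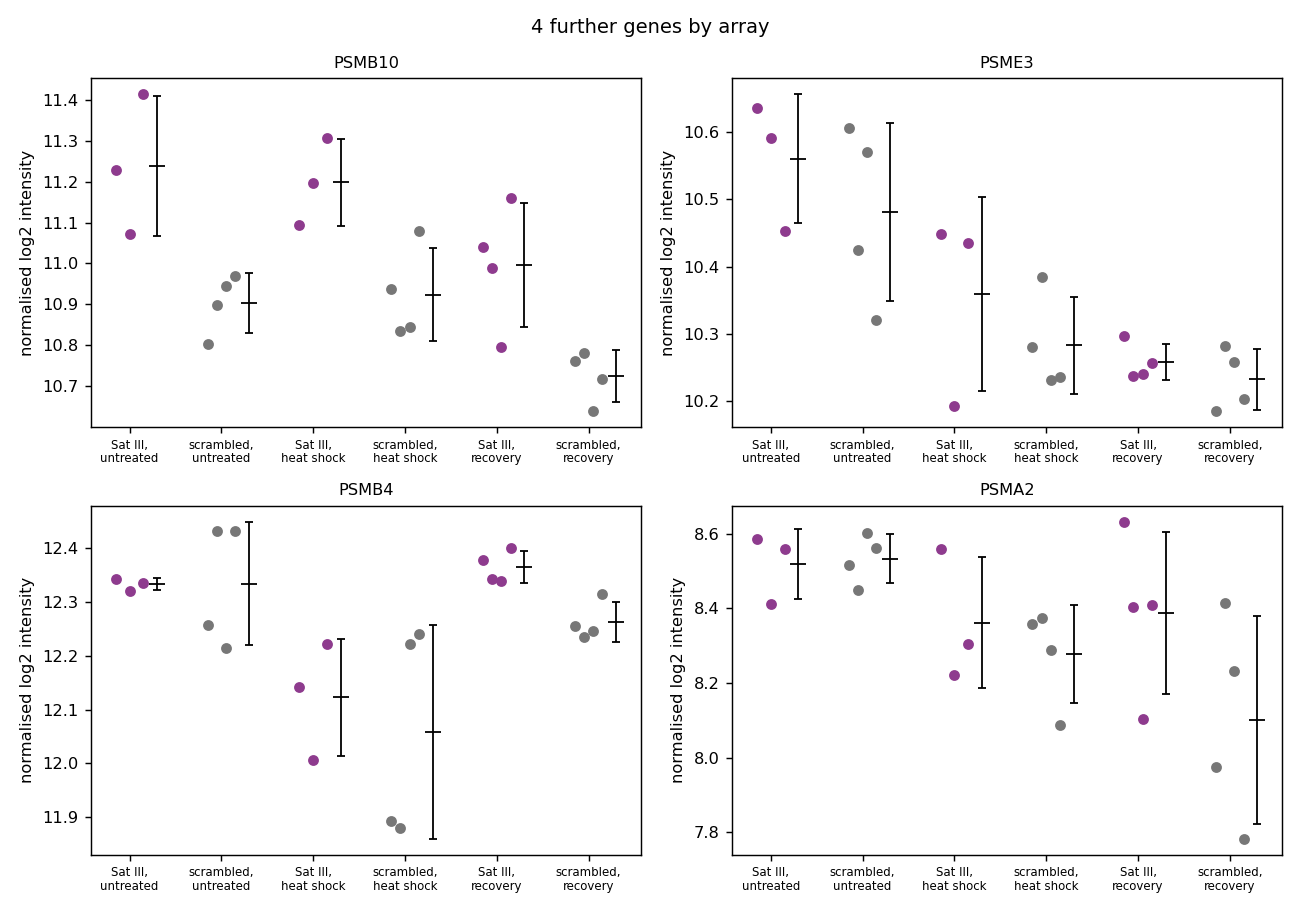
Normalised log2 intensity on each array (points) with the mean and SD of each group (bars) of PSMB10, PSME3, PSMB4 and PSMA2, in Sat III siRNA (purple) and scrambled siRNA (grey) cells. PSMB10 is higher in the Sat III siRNA arm within each treatment. PSME3 has its lowest mean in recovery in each arm, where its arrays overlap with the heat-shocked ones. PSMB4 is low on some heat-shocked arrays and overlaps with untreated cells in the scrambled siRNA arm. In PSMA2 the recovering scrambled siRNA cells have the lowest mean.

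Whether the arms responded differently to heat was tested directly. No member of 38 had a different heat shock change or a different recovery change in the 2 arms by limma (0 called, with 0 members at an unadjusted p under 0.05 in either test), and 0% of all genes were called in each, with 368 and 387 genes at an unadjusted p under 0.05. The 95% interval of this difference lay within 1.5-fold for 35 and 36 of the 38 members, against 76.8% and 79.3% of all genes.

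No call held under every way of bringing the arrays to one scale. When arrays were scaled by their medians in place of quantile normalisation, all 12 calls of members were lost (adjusted p 0.172 to 0.932), with no change of direction. Between 13176 and 14863 of the 48803 probes were detected per array, so the median probe of an array was an undetected one. This scale need not align the bright probes, so results under it cannot decide whether the calls are sound. The 15 arrays with matching labels leave fewer arrays in each group. On their scanner values the 3 calls of PSMG1 between arms, PSMD12 and PSMD8 were kept. The other 7 of the 12 were lost (limma, adjusted p up to 0.133). On the authors' deposited normalised values of the same arrays 5 were lost, and PSMB4 and, in scrambled siRNA cells, PSME3 were also kept. With only the compared groups in the fit 7 of the 12 were lost, and those of PSMG1 between arms, PSMD12, and PSME3 in Sat III siRNA cells were kept. With median scaling the differences of PSMG1 between arms were -0.81, -0.65 and -0.64, with adjusted p of 0.172, 0.436 and 0.227. The median standard error of the members in the scrambled siRNA arm was 0.18 log2 units with median scaling and 0.08 in the fit reported here. That scaling also moved the median of all genes in heat shock against untreated scrambled siRNA cells to -0.12, and that of the members to -0.06, so the sign of the members' median change flips there. Relative to the median of all genes, the members were 0.06 higher with median scaling and 0.03 higher in the fit reported here.

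Some genes around the proteasome gave larger changes. Of 12 tested factors that assemble or associate with it, 2 rose and none fell after heat shock in Sat III siRNA cells, and 3 rose and 1 fell in scrambled siRNA cells, with medians of 0.02 and -0.05 log2 units. Over all genes 4.11% rose and 3.51% fell in Sat III siRNA cells, and 5.97% rose and 5.70% fell in scrambled siRNA cells. The calls of this list and of those that follow were not examined under the alternative settings. ZFAND2A, an arsenite- and heat-inducible protein that binds the 19S particle, rose by 2.48 ± 0.14 log2 units in Sat III and by 2.35 ± 0.12 in scrambled siRNA cells (SE; limma, adjusted p = 1.54e-11 and 2.41e-12). ZFAND5, which binds the proteasome and raises its activity, rose by 0.28 in both arms (adjusted p = 0.0379 in Sat III and 0.0105 in scrambled siRNA cells). In scrambled siRNA cells AKIRIN2, which brings proteasomes into the nucleus, rose by 0.23 (adjusted p = 0.0412), and USP14, a deubiquitinase of the proteasome, fell by 0.32 (adjusted p = 0.0487). In recovery ZFAND2A was still higher than in untreated cells, by 0.72 in Sat III and 0.85 in scrambled siRNA cells. AKIRIN2 was lower in recovery than in untreated cells of the Sat III siRNA arm, by 0.26 (adjusted p = 0.0325). Against heat shock, 2 of the 12 were lower and 0 higher in Sat III siRNA cells, ZFAND2A and AKIRIN2, and 3 were lower and 0 higher in scrambled siRNA cells, the same genes and ZFAND5. AKIRIN2 was lower there by 0.38 in Sat III and 0.21 in scrambled siRNA cells. In the same comparisons 9.75% and 9.53% of all genes were lower, and 11.8% and 12.2% higher. None of the 12 was called between the siRNA arms in any state, against 6.09% of all genes untreated, 7.03% after heat shock and 10.5% in recovery.

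Among 10 tested shuttle factors and parts of the segregase that extracts ubiquitinated proteins, 1 rose after heat shock in Sat III siRNA cells, and 1 rose and 1 fell in scrambled siRNA cells. The shares of all genes called were 7.62% and 11.7%. UFD1, an adaptor of the segregase, rose by 0.61 in Sat III and 0.45 in scrambled siRNA cells (limma, adjusted p = 1.12e-04 and 4.04e-04), and was lower in recovery than after heat shock by 0.53 and 0.51. RAD23B, a shuttle factor, fell by 0.27 after heat shock in scrambled siRNA cells (adjusted p = 0.0361). UBQLN4, also a shuttle factor, was lower in recovery than in untreated cells, by 0.29 in Sat III and 0.25 in scrambled siRNA cells. It was the single call of the 10 there in each arm, against 12.0% and 10.9% of all genes. Against heat shock, 3 of the 10 were lower and 0 higher in Sat III siRNA cells, and 3 were lower and 1 higher in scrambled siRNA cells. There 21.5% and 21.7% of all genes were called. Between the arms 1 of the 10 was called, RAD23B, which was 0.30 higher with the Sat III siRNA after heat shock (adjusted p = 0.0386). In that state 7.03% of all genes were called.

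Of 6 tested genes of the NFE2L1 axis, 1 rose after heat shock in Sat III siRNA cells, and 2 rose and 2 fell in scrambled siRNA cells. Among all genes 7.62% and 11.7% were called in these comparisons. MAFG, a small Maf partner of NFE2L1 and NFE2L2, rose by 0.70 in Sat III and 0.67 in scrambled siRNA cells (limma, adjusted p = 0.00127 and 0.000326). NFE2L2, the related factor of the oxidative stress response, rose by 0.53 in scrambled siRNA cells. In the same comparison NGLY1, the glycanase that processes NFE2L1, fell by 0.31, and SYVN1, a ubiquitin ligase of the endoplasmic reticulum, fell by 0.54. In recovery against untreated cells, 2 of the 6 were higher and 1 lower in Sat III siRNA cells, and 1 was lower in scrambled siRNA cells. In these comparisons 12.0% and 10.9% of all genes were called. NGLY1 was the lower gene, by 0.38 in Sat III and 0.49 in scrambled siRNA cells. The higher genes in the Sat III siRNA arm were MAFG and NFE2L1 itself, NFE2L1 by 0.44 (limma, adjusted p = 0.0139). Against heat shock, 1 of the 6 was higher and 1 lower in Sat III siRNA cells, and 1 was higher and 2 lower in scrambled siRNA cells. There 21.5% and 21.7% of all genes were called. None of the 6 was called between the siRNA arms. The most proteasome members called in any of the 11 comparisons was 3 of 38, in scrambled siRNA recovery against untreated cells. There 10.9% of all genes were called. A link between the genes of this axis and the proteasome members was not tested.

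Of 10 tested genes of antigen processing, which use the peptides that the proteasome makes, 1 was higher after heat shock in Sat III siRNA cells, IRF1, by 0.42, and 0 were called in scrambled siRNA cells (limma). The shares of all genes called were 7.62% and 11.7%. TAP2, one part of the peptide transporter, was lower in recovery than in untreated cells by 0.31 in Sat III and 0.29 in scrambled siRNA cells. Against heat shock, HLA-C was 0.47 higher and IRF1 0.42 lower in recovery in Sat III siRNA cells, and TAP1 was 0.25 higher in scrambled siRNA cells. There 21.5% and 21.7% of all genes were called. Between the arms, untreated Sat III siRNA cells had lower TAP1, the other part of the transporter, by 0.31 (adjusted p = 0.0433) and lower TAPBP, which loads peptides on class I molecules, by 0.48 (adjusted p = 0.0122). TAP1 was also lower with the Sat III siRNA in recovery, by 0.29 (adjusted p = 0.0251). With this siRNA 3.82% of all genes were lower in untreated cells and 6.92% in recovery. In those comparisons PSMB10 was higher, so the called genes of antigen processing and this immunoproteasome subunit differed in opposite directions.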

How the data were processed

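The deposited scanner table gives, per the file headers, the average intensity of 48803 probes and a detection p-value per probe on each of 22 arrays. Per the labels' protocols, 300 ng of total RNA was amplified and labelled with biotin. The authors' deposited normalised intensity values are on a linear scale and have the same quantiles on every array, as the values show. The sources used here give no tool or version for them.

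Scanner intensities were background-corrected and quantile-normalised with neqc (limma 3.58.1, R 4.3.3, offset 16) and put on a log2 scale. Probes with a detection p-value under 0.01 on at least 3 arrays were kept (15324). Gene symbols came from the platform annotation (1 symbol for 28098 probes, several for 13, none for 20692), updated through RefSeq. The brightest tested probe stood for a gene. One limma fit of 6 group means gave 11 comparisons, with Benjamini-Hochberg adjustment over 10147 genes and an adjusted p under 0.05 as the threshold. The code was tested on simulated data. The proteasome genes, the lists and the tests were chosen with earlier results of these data known. Named were all called members, a set of catalytic, inducible, activator and chaperone genes whatever their result, and called genes of the lists. Same-numbered replicates were not paired: their deviations correlated between -0.062 and 0.3. Alternatives changed normalisation, background correction, filter, probe choice, samples, blocks and source table.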

Additional observations from a re-analysis of the deposited data

Results flagged for a closer look

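In a group of 4 arrays a value was singled out when its gap to the nearest other array, as a share of the whole range, passed Dixon's 95% critical value, which chance alone does in about 1 of 20 groups. The 22 members whose changes or array values are given in the text were examined in the 4 groups of 4 arrays, which made 88 pairs, and 4 met it, all in recovery. PSMD10 measured 11.89 log2 units on scrambled siRNA recovery replicate 3, against 11.76 to 11.78 on the other 3 arrays. PSMD9 measured 8.21 on scrambled siRNA recovery replicate 4, against 7.85 to 7.91. PSMD2 measured 10.10 on Sat III siRNA recovery replicate 1, against 10.15 to 10.16. PSMG2 measured 10.22 on Sat III siRNA recovery replicate 4, against 10.40 to 10.44. None of these 4 genes was called in a comparison of the reported fit, and the cause was not tested.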

How the results depend on the processing

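The log2 changes of called members kept their direction under every alternative run. With median scaling, where the median probe was an undetected one, 0 members were called in any comparison. All genes called then numbered 43 to 457 in the 9 comparisons of groups (618 to 2202 in the reported fit). The members' median in Sat III siRNA recovery against heat shock was -0.05, against 0.01 in the reported fit. With replicates 1 and 2 alone, replicates 3 and 4 alone, only the compared groups in the fit, or the 15 arrays with matching labels (scanner or authors' table), heat shock gave 1 call in Sat III siRNA cells (both 15-array tables and replicates 1 and 2) and 0 in scrambled siRNA cells (only the compared groups, replicates 3 and 4, 15 scanner arrays). Recovery against untreated gave 0 in Sat III siRNA cells on replicates 1 and 2 and on either 15-array table, but not with only the compared groups. In scrambled siRNA cells it gave 1 on either 15-array table and 0 with fewer groups or replicates. Recovery against heat shock gave 0 in Sat III siRNA cells on replicates 1 and 2. In scrambled siRNA cells it gave 2 on the authors' 15 arrays and 0 with only the compared groups or replicates 3 and 4. Between arms, these settings gave 1 in untreated cells and 1 in recovery. On replicates 3 and 4 the Sat III siRNA arm had only replicate 4 in untreated and in heat-shocked cells, so no counts are given for comparisons with those groups. Each probe on its own or no detection filter gave 1 in recovery between arms. The mean of probes gave 3 between arms in untreated cells, with PSMD10 added. No background correction gave 2 after heat shock between arms and 2 in Sat III siRNA recovery against heat shock, and detection on every array gave 2 in both Sat III siRNA recovery comparisons. The replicate block, on numbers that were not taken as pairs, gave 1 in Sat III siRNA heat shock (PSMD11) and 2 in each Sat III siRNA recovery comparison. In scrambled siRNA recovery against untreated it gave 4 (with PSMD11 added). Between arms it gave 3 in untreated cells (PSMD10 added) and in recovery (PSMD14 added). In no comparison did every array correlate best with its own number, but replicate 4 correlated best with replicate 4 in each of the 9 comparisons of groups (r from 0.178 to 0.3). A block of replicates 1 and 2 against 3 and 4 gave 1 in Sat III siRNA heat shock, 2 in Sat III and 4 in scrambled siRNA recovery against untreated, and 3 between arms in recovery.

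Leaving out 1 array gave 0 to 1 calls for heat shock in each arm, 0 to 2 for recovery against untreated in Sat III and 0 to 3 in scrambled siRNA cells, 0 to 1 in Sat III and 0 to 2 in scrambled siRNA cells for recovery against heat shock, 1 to 2 in each state between the arms, and 0 to 0 for both differences between arms. Among the alternatives, the number of all genes called is given above only for median scaling. For the other settings, and with 1 array left out, the member counts do not show whether members gained or lost calls more than other genes. The smallest called change of a member was 0.25 log2 units in size.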
